A study of Mus musculus with 3 samples.

Results

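The Toll-like receptor genes Tlr1 to Tlr9 and the adaptor gene Myd88 were taken by their symbols from the count tables of 5TGM1.BRE cells, which gave 10 genes of 24467. 5TGM1 is a mouse multiple myeloma line that arose in C57BL/KaLwRij mice, and 5TGM1.BRE is its bortezomib-resistant, engraftable derivative, which came from the marrow of mice of that strain. The only group is 5TGM1.BRE, with 3 libraries of polyadenylated RNA. The cells were kept in 10 nM bortezomib, a proteasome inhibitor, and were off the drug for at least 72 h before RNA was taken from 10000000 cells per sample. The labels give no age of the mice and do not say if the replicates were cultures of their own, so the SDs may be technical. The sensitive parental line was not analysed here, and the results are levels within resistant cells.

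Toll-like receptors recognise microbial molecules. Those at the cell surface bind lipids, lipoproteins and flagellin, and those in endosomes bind nucleic acids. On binding, a receptor recruits adaptor proteins through a shared TIR domain. Most of the family signal through MyD88, which gathers IRAK kinases and leads to NF-kappaB, whereas Tlr3 signals through the adaptor encoded by Ticam1, and Tlr4 can use either. Normal B cells carry several of these receptors, and human myeloma cells are known to respond to some of their ligands.

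Depth was 62303493, 45705994 and 59402218 counts in replicates 1, 2 and 3. Levels are given in CPM (counts per 1000000 counts of the library) and, for comparison between genes, in CPM per kilobase of exon. Replicate 3 stood apart. It differed from replicates 1 and 2 by chi-square values of 65.1 and 44.4 per degree of freedom, against 4.0 between replicates 1 and 2. Where no count was seen, the upper limit was taken as 3 counts, which is 0.0482, 0.0656 and 0.0505 CPM in replicates 1, 2 and 3, and 0.0179 CPM over the group. These limits, like the intervals below, cover counting error alone, because reads copied by PCR are no separate molecules. Of 10 plasma cell markers, 8 were at 1 CPM or more in all libraries, against 40.9% of all genes in the tables. The list summed to 4612, 4517 and 4505 CPM in replicates 1, 2 and 3. The other 2, Tnfrsf17 and Derl3, averaged 0.582 and 0.828 CPM.

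The genome sequence before the start of 3 members is shown here, because Myd88 was transcribed whereas Tlr9 and Tlr5 were at or near 0. Each run holds the 250 bases before the RefSeq transcript start in the C57BL/6J reference (GRCm38.p6), 5′ to 3′ on the gene's strand. Capitals mark matches to 4 motifs searched on both strands: the octamer ATTTGCAT bound by Oct factors, the interferon-stimulated response element core GAAANNGAA, the PU.1 core GAGGAAGT and the NF-kappaB consensus.
Myd88, chr9:119340019-119340268, minus strand: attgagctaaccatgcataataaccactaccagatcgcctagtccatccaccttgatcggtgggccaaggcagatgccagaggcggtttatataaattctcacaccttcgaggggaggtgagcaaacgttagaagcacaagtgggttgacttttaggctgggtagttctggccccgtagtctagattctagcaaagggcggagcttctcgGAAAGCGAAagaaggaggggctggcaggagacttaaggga
Tlr9, chr9:106222348-106222597, plus strand: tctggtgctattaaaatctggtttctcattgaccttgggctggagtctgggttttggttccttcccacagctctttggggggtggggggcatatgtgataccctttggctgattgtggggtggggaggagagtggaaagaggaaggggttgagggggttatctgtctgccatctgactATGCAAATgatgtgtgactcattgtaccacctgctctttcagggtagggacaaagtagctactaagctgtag
Tlr5, chr1:182954538-182954787, plus strand: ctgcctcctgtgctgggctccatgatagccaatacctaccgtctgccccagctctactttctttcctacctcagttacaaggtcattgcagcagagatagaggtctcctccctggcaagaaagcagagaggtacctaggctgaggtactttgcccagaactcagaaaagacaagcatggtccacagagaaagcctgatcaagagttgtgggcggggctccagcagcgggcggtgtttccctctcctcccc

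The Myd88 window held 1 match to the interferon-stimulated response element core, which begins 40 bases before the start. The Tlr9 window held 1 octamer match, 72 bases before the start, and the Tlr5 window held none of the motifs. The windows contained 9 CpG dinucleotides for Myd88, 0 for Tlr9 and 4 for Tlr5, against a median of 6 over the 32851 windows of the table. The octamer was found in 1.6% of those windows, the response element core in 7.13%, the PU.1 core in 2.44% and the NF-kappaB consensus in 3.9%. The whole Myd88 window lies inside the annotated gene, at 119335934 to 119341411, so it is not upstream of every annotated transcript. Of that window, 23 bases lie in exons of annotated Myd88 transcripts, and the windows of Tlr9 and Tlr5 touch no annotated exon of those genes. Among the windows of other members, that of Tlr2 held 2 overlapping NF-kappaB matches and that of Tlr3 held 1. A Tlr1 window held 1 PU.1 match, and windows of Tlr6 and Tlr8 held response element matches. Tlr1 and Tlr6 each had a further window without a match. The Tlr3 window and the Tlr6 window with matches lie inside the annotated genes. Of the Tlr3 and Tlr2 windows, 178 and 159 bases lie in annotated exons of those genes. Of the 10 members, 8 had an entry in the RefSeq table, and Tlr4 and Tlr7 had none. The matches are of letters in a reference window, and no binding was measured.

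Tlr4 and Myd88 were the members at 1 CPM or more in every library, and the other receptors of the set were below 1 CPM in every library. Of the 10 members, these 2 were at 1 CPM or more in all libraries, against 40.9% of all genes in the tables. Another 6 members had 1 to 32 counts over all libraries, and Tlr5 and Tlr8 had none. The median over the 10 members was 0.0202 CPM, against 0.0764 CPM over all genes of the tables.

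**Figure D1:**
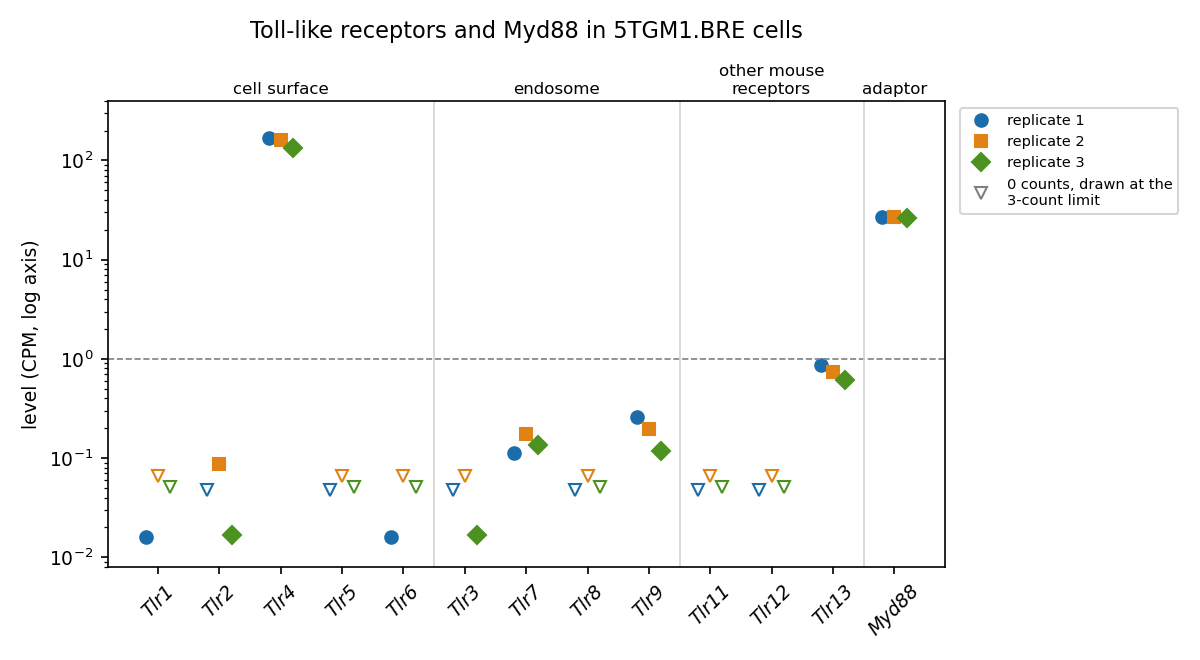
Levels of the Toll-like receptor genes and Myd88 in CPM on a log axis, with 1 point for each of the 3 libraries. Filled points are measured levels, open triangles stand for 0 counts and are drawn at the level that 3 counts would give, and the dashed line marks 1 CPM. Tlr4 and Myd88 lie above the line in every library and all other receptors lie below it.

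Tlr4, whose product senses bacterial lipopolysaccharide, had 10487, 7306 and 7883 counts in replicates 1, 2 and 3. These are levels of 168, 159.8 and 133 CPM, with a mean of 154 ± 18.6 CPM (SD, n = 3). In bulk RNA, fewer cells with a transcript and less of it per cell cannot be told apart. Replicate 3 had the lowest level, and the spread was 12.1% of the mean. Per kilobase of its 5556 exon bases, the level of Tlr4 was 27.7 ± 3.35 CPM (SD, n = 3), at percentile 86.6 among genes with a count. The gene lies on the plus strand of chromosome 4 at 66827584 to 66930284 (GRCm38) and shares no exon base with another annotated gene. Tlr4 made up 99.3% of the counts of the 12 mouse receptor genes in every library, with exact binomial 95% intervals of 99.1 to 99.4%, 99.0 to 99.4% and 99.1 to 99.5% in replicates 1, 2 and 3.

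The other receptors of the cell surface were at or near 0. Tlr2, which recognises bacterial lipoproteins as a heterodimer with Tlr1 or Tlr6, had 0, 4 and 1 counts in replicates 1, 2 and 3. Its partners Tlr1 and Tlr6, neighbours on chromosome 5 and close relatives in sequence, each had 1 count, in replicate 1. Over the 167411705 counts of all libraries, Tlr2 was at 0.0299 CPM, with an exact Poisson 95% interval of 0.0097 to 0.0697 CPM. Tlr5, the receptor for flagellin, was at 0 throughout, so its level was at most 0.0179 CPM. Per kilobase, Tlr4 was thus at least 7379-fold higher than Tlr5, with Tlr5 set at 3 counts over the group.

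Transcripts of the endosomal members Tlr3, Tlr7, Tlr8 and Tlr9 were rare, and their sum, without that of Tlr13, was 0.369, 0.372 and 0.269 CPM in replicates 1, 2 and 3. Tlr9, the receptor for unmethylated CpG DNA, had 16, 9 and 7 counts, or 0.191 ± 0.0697 CPM (SD, n = 3). Tlr7, whose ligand is single-stranded RNA, had 7, 8 and 8 counts, a level of 0.141 ± 0.0318 CPM (SD, n = 3). Both were detected in every library, and both were below 1 CPM in every library. Tlr3, which binds double-stranded RNA, had 1 count, in replicate 3. Tlr8, which lies beside Tlr7 on chromosome X, had none, and Tlr4 was at least 5524-fold higher per kilobase with Tlr8 set at 3 counts over the group.

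Among the receptors that mice have beyond these members, Tlr13 was the highest. Tlr13, an endosomal sensor of bacterial ribosomal RNA, had 54, 34 and 36 counts in replicates 1, 2 and 3, or 0.739 ± 0.13 CPM (SD, n = 3). It was below 1 CPM in every library. Tlr11 and Tlr12, which in mice recognise a profilin of protozoan parasites, had 0 counts.

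Myd88 varied less between libraries than Tlr4. By edgeR's estimate, the coefficient of variation over the 3 libraries was 7.43% for Myd88 and 9.46% for Tlr4. Myd88 had 1688, 1238 and 1562 counts in replicates 1, 2 and 3, which are 27.1, 27.1 and 26.3 CPM. The mean was 26.8 ± 0.459 CPM (SD, n = 3), a spread of 1.71% of the mean. Per kilobase the level was 10.4 ± 0.178 CPM (SD, n = 3), at percentile 71.4 among genes with a count. Myd88 lies on the minus strand of chromosome 9 at 119335934 to 119341411. It shares 290 of its 2576 exon bases, or 11.3%, with Acaa1a on the opposite strand, a gene at 31.8 ± 2.29 CPM (SD, n = 3). No source used here gives the strand setting of the counting, so reads of that stretch cannot be assigned with certainty.

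Ordered by level per kilobase, the members ran Tlr4, Myd88, Tlr9, Tlr7, Tlr2, Tlr1, Tlr6 and Tlr3, with Tlr5 and Tlr8 at 0. Tlr4 was 2.66-fold above Myd88 per kilobase, and Myd88 was 190.1-fold above Tlr9, and the libraries did not overlap in either step. The ranges of Tlr9 and Tlr7 overlapped, as did those of every lower pair of neighbours, so the order of neighbours was not resolved at this depth. Farther apart, Tlr9 at 0.0339 to 0.0738 CPM per kilobase did not overlap Tlr2, which reached 0.029 CPM per kilobase. Over all libraries, the exact Poisson 95% intervals in CPM were 0.131 to 0.27 for Tlr9 and 0.0871 to 0.206 for Tlr7, both above that of Tlr2 and above those of Tlr1, Tlr3 and Tlr6, which each reached 0.0333. With 3 libraries of 1 group, no gene can be ranked by likeness of its pattern to these.

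The partners of Tlr4 were unequally present. Ly96, which encodes MD-2, the protein that holds lipopolysaccharide on Tlr4, had 1615, 1247 and 1683 counts in replicates 1, 2 and 3. Per kilobase its level was 26.6 ± 1.18 CPM (SD, n = 3), beside 27.7 CPM for Tlr4. The log2 ratio of Tlr4 to Ly96 per kilobase was 0.25, 0.11 and -0.22 in replicates 1, 2 and 3. The mean ratio was 0.048 ± 0.24 (SD, n = 3), with an exact two-sided sign-flip permutation p = 0.75 (0.75 after Benjamini-Hochberg adjustment over 5 pairs). The smallest p that 3 libraries allow is 0.25, so the test could not have passed 0.05, and the mean was smaller than the SD and its sign differed between libraries. The nearness of the 2 genes rests on the division by length: in CPM, Tlr4 was 5.63-fold above Ly96, at a log2 ratio of 2.49, with 154 against 27.2 CPM. The sign turned to -0.12 with the longest transcript as the length and to -0.055 without replicate 1.

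Cd14, the co-receptor that delivers lipopolysaccharide to this complex, had 0, 1 and 4 counts in replicates 1, 2 and 3. Lbp, a serum carrier of lipopolysaccharide made mainly in liver, had 1, 3 and 8 counts, and Tril, an accessory protein of Tlr3 and Tlr4, had none. Cd180, a Tlr4 relative found on B cells, was at 6.95, 6.5 and 5.15 CPM in replicates 1, 2 and 3. Its partner Ly86, which encodes MD-1, was at 0.578, 0.569 and 0.741 CPM. Of 7 co-receptors and relatives, Ly96 and Cd180 reached 1 CPM in all libraries.

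**Figure D2:**
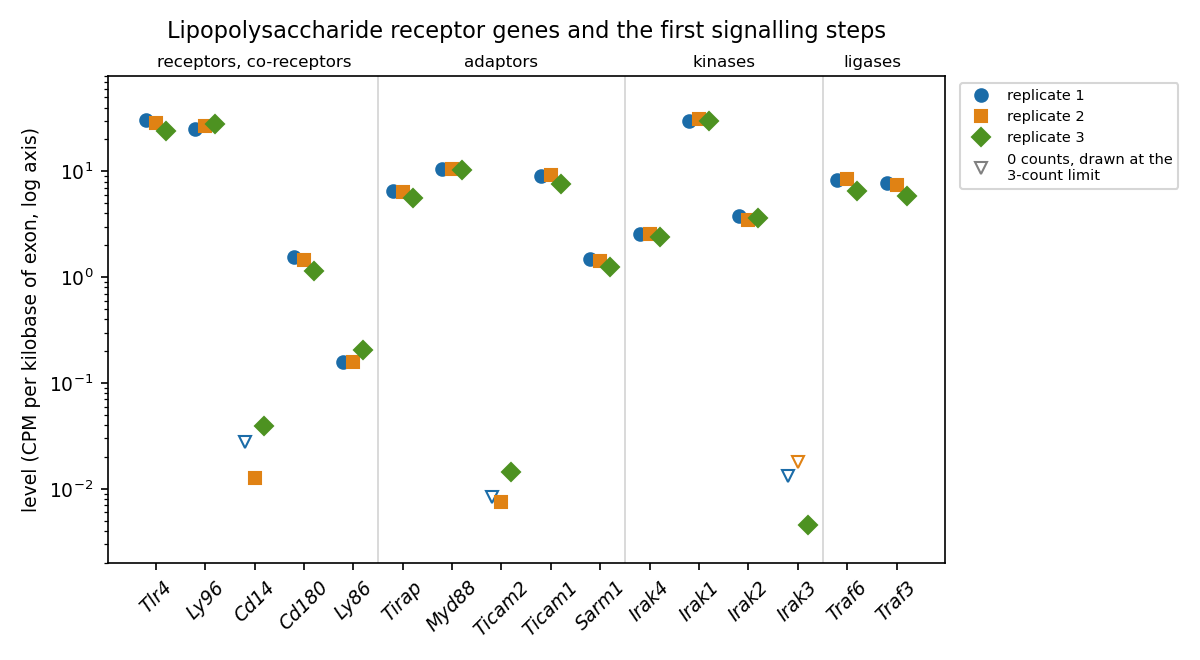
Levels of receptor, co-receptor, adaptor, kinase and ligase genes of the Tlr4 route, in CPM per kilobase of exon on a log axis, with 1 point for each of the 3 libraries. The kinases drawn are those of the Irak family, and the ligases are Traf6 and Traf3. Open triangles stand for 0 counts and are drawn at the level that 3 counts would give. Of the genes drawn, Irak1, Tlr4 and Ly96 are the highest, and Cd14, Ticam2 and Irak3 are near the bottom.

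Genes of both adaptor routes were transcribed, with 1 gap. Tirap, which bridges MyD88 to Tlr4, was at 6.21 ± 0.482 CPM per kilobase (SD, n = 3), and Ticam1, which encodes TRIF, at 8.58 ± 0.897 CPM per kilobase (SD, n = 3). Ticam2, which encodes TRAM, the bridge between Tlr4 and TRIF, had 0, 2 and 5 counts in replicates 1, 2 and 3. It shares 838 exon bases, or 14.5% of its exons, with Tmed7 on the same strand, a gene at 389.96 ± 19.9 CPM (SD, n = 3), and no source used here says how reads of that stretch were counted. Sarm1, which encodes a TIR protein with NAD-cleaving activity, was at 1.38 ± 0.12 CPM per kilobase (SD, n = 3). Pik3ap1, which encodes the adaptor BCAP of B cells, had 39, 24 and 33 counts and stayed below 1 CPM.

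Of 13 fixed gene pairs, 5 had at least 10 counts for both genes in every library. Per kilobase, Myd88 exceeded Ticam1 by a log2 ratio of 0.29 ± 0.13 (SD, n = 3), higher in 3 of 3 libraries. This rests on the division by length. Without lengths the log2 ratio was 0.07 ± 0.13 (SD, n = 3), and in replicate 2 Myd88 had fewer counts than Ticam1, 1238 against 1259. The log2 ratio of Tirap to Myd88 was -0.75 ± 0.09 (SD, n = 3) per kilobase and turned to 0.19 without lengths. Irak4, the kinase that joins MyD88 first, was 4.14-fold below Myd88, at a log2 ratio of -2.05 ± 0.04 (SD, n = 3) per kilobase. It was 2.97-fold below Myd88 with the longest transcript as the length and 2.12-fold below without lengths. Irak1, the kinase that Irak4 activates, was 12.04-fold above Irak4, at 3.59 ± 0.06 (SD, n = 3) on the same scale. Per kilobase these 4 ratios had an exact permutation p = 0.25 (sign flips, two-sided, n = 3), or 0.312 after Benjamini-Hochberg adjustment over the 5 pairs. The smallest p that 3 libraries allow is 0.25.

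Downstream of the adaptors, 17 of 20 kinases and ubiquitin ligases were at 1 CPM or more in all libraries, with 51.1 CPM as the median of the 20. By CPM per kilobase, Chuk, a subunit of the IkappaB kinase, was at 37.7 ± 0.941 CPM, Map3k7, which encodes TAK1, at 34.0 ± 2.72 CPM, and Irak1 at 30.3 ± 0.631 CPM (SD, n = 3 for each). The ligase gene Traf6 was at 7.79 ± 1.05 CPM per kilobase and Tbk1, a kinase of the TRIF route, at 22.5 ± 1.26 CPM per kilobase (SD, n = 3 for each). Irak3, which encodes an inhibitory IRAK of myeloid cells, had 1 count over all libraries, in replicate 3, and Peli2 and Peli3 had none.

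Of 8 transcription factors of the pathway, 6 reached the limit. Irf3, which acts after TRIF, was at 19.5 ± 1.23 CPM per kilobase, Irf5, which acts after MyD88, at 16.2 ± 0.254 CPM per kilobase, and Rela, an NF-kappaB subunit, at 11.5 ± 0.278 CPM per kilobase (SD, n = 3 for each). Irf7, which serves endosomal receptors, was at 1.44 ± 0.119 CPM (SD, n = 3), and Irf8 had 1 count over all libraries, in replicate 3. Negative regulators passed in 10 of 12 cases. Nfkbia, which encodes the inhibitor IkappaB-alpha, led them at 71.1 ± 3.06 CPM per kilobase, with Nfkbiz, an atypical IkappaB gene, at 28.2 ± 1.71 CPM per kilobase (SD, n = 3 for each). Il1rl1 had 0 counts.

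Helpers that fold and move the receptors were abundant, although the endosomal receptors themselves were rare. Of 12 folding and trafficking genes, 10 were at 1 CPM or more in all libraries. Unc93b1, the chaperone that carries endosomal receptors out of the endoplasmic reticulum, was at 297, 294 and 297 CPM in replicates 1, 2 and 3, or 97.7 ± 0.514 CPM per kilobase (SD, n = 3). Cnpy3, a cofactor of receptor folding, was at 15.9 ± 0.32 CPM per kilobase (SD, n = 3). Ctss and Lgmn, endosomal proteases that process these receptors among many other proteins, were at 620.2 ± 39.1 and 330 ± 18.2 CPM per kilobase (SD, n = 3 for each). Most of these helpers also serve other proteins, and they are not specific to the receptors.

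Of 17 genes that Toll-like receptors induce in immune cells, 5 were at 1 CPM or more in all libraries, against 40.9% of all genes. A count was seen for 16 of them, and the median of the 17 was 0.108 CPM, against 0.0764 CPM over all genes. Il10, an anti-inflammatory cytokine, was at 13.98, 14.9 and 17.6 CPM in replicates 1, 2 and 3. The chemokine genes Ccl3, Ccl5, Ccl4 and Cxcl10 averaged 3.49, 1.999, 1.29 and 1.29 CPM. Il6, a growth factor of myeloma cells, had 1 count over all libraries, in replicate 3, Tnf had 6, 5 and 10 counts, and Il12a had none. The labels name no added ligand, so these are levels of cultured cells, and whether they are a response was not tested.

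MyD88 also serves receptors of the interleukin-1 family. Il1rap, the accessory chain of the receptors for interleukin-1 and interleukin-36, was at 22.3 ± 3.11 CPM (SD, n = 3) and was the 1 gene of 5 above the limit. Il1r1 had 1, 1 and 2 counts in replicates 1, 2 and 3, and Il18r1, Il18rap and Il1rl2 had none.

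**Figure D3:**
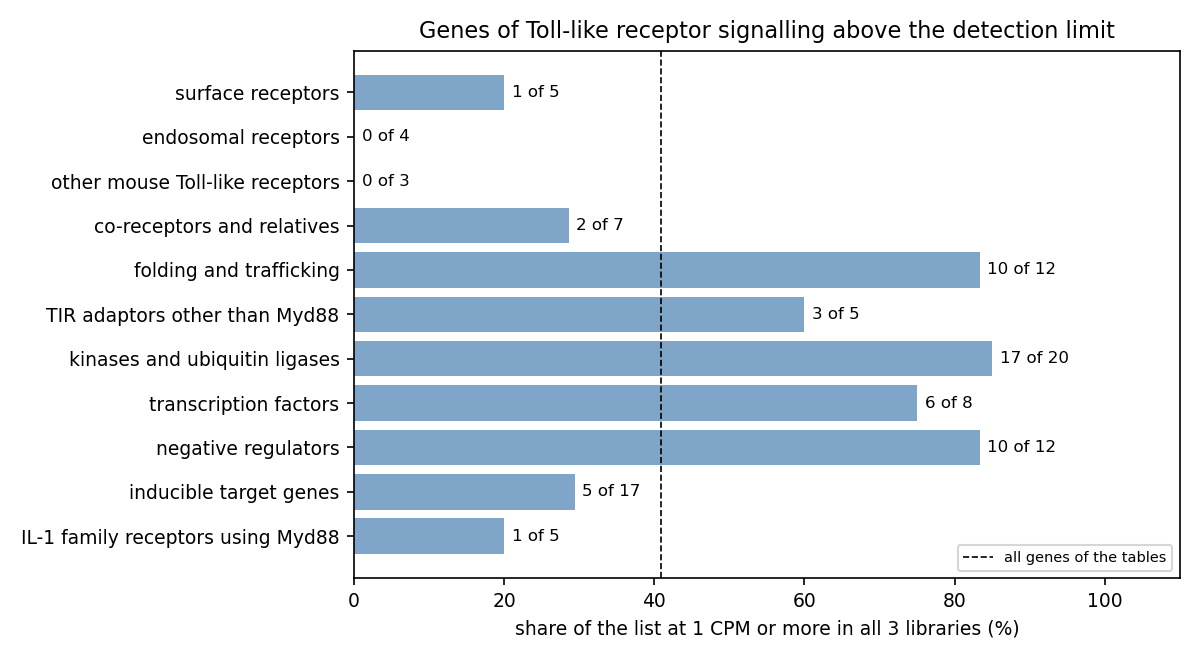
Share of each fixed gene list, in percent, at 1 CPM or more in all 3 libraries, with the number of genes beside each bar. The dashed line is the share over all genes of the tables, 40.9%. The lists of kinases and ubiquitin ligases (17 of 20), folding and trafficking (10 of 12) and negative regulators (10 of 12) lie right of the line, and all receptor lists lie left of it.

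Markers of other cell types that carry Toll-like receptors were mostly near 0. Of 12 macrophage and monocyte markers, 1 reached the limit, and the list summed to 32.8, 30.7 and 27.0 CPM in replicates 1, 2 and 3. Mrc1, a mannose receptor gene, made up nearly all of it at 32.0, 29.996 and 25.7 CPM, while Cd163 and Ccr2 had 0 counts. Csf1r and C1qa, named after their values were seen, had 0, 1 and 3 counts and 0, 0 and 9 counts, and Lyz2 had 6, 3 and 15 counts. The markers of this list shared no single order of the libraries. Mrc1 was highest in replicate 1 and lowest in replicate 3. Csf1r, C1qa, C1qb, C1qc, Lyz2 and Adgre1 had the most counts in replicate 3. Itgam, Fcgr1 and Mpeg1 had as many counts in replicate 1 as in replicate 3, with 36, 23 and 36 for Mpeg1 in replicates 1, 2 and 3. The part of these markers' cells in the level of Tlr4 was not tested. Of 9 dendritic cell markers, 4 passed, with sums of 351, 369.9 and 359 CPM, carried by Tcf4 and Bst2, which B-lineage cells also express. The other 2 that passed were Zbtb46 at 3.48, 2.89 and 2.36 CPM and Flt3 at 1.8, 2.19 and 2.42 CPM in replicates 1, 2 and 3, while Clec9a had 0 counts. Of 9 B cell markers, 2 passed, Cd79b and Ms4a1, with list sums of 92.0, 90.8 and 102 CPM, while Cr2 and Bcl6 had 0 counts. The 8 neutrophil markers summed to at most 0.263 CPM and the 10 T and NK cell markers to at most 0.562 CPM in any library, and 1 of 10 stromal and endothelial markers passed, Pecam1 at 5.31 CPM.

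Each library was set against the other 2 to see whether the members varied within the group, which is no comparison of conditions. Of the members, Tlr4 and Myd88 had enough counts to be tested with edgeR's quasi-likelihood test. Tlr4 was lower in replicate 3, at 133 CPM, against 168 and 159.8 CPM in replicates 1 and 2. The log2 fold change was -0.28 (SE 0.041), with a Benjamini-Hochberg adjusted p = 9.57e-11 over 11308 genes by edgeR. In that comparison 51.6% of all genes tested were called, 26.8% lower and 24.8% higher, so 1 call among the 2 tested members is no more than the background of this library. With 1 library on one side, the spread behind this and the other p-values for replicate 3 comes from replicates 1 and 2 alone, which may be technical repeats. With the trend of the fold change on exon length removed, the value for Tlr4 was -0.21 (SE 0.04), with an edgeR adjusted p = 3.5e-06.

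Myd88 did not pass in any library. For replicate 3 its log2 fold change was -0.01 (SE 0.067), with an edgeR adjusted p = 0.898, and with the length trend removed it was -0.14 (edgeR adjusted p = 0.106). For replicates 1 and 2, the log2 fold changes by edgeR were 0.19 (SE 0.187) and 0.08 (SE 0.208) for Tlr4, and 0.004 and 0.008 for Myd88. In these comparisons replicate 3 is among the other 2 libraries, and its departure widens the spread. A lack of calls there does not show that the members were steady. In those comparisons edgeR called 0.0796% and 0.0531% of all genes.

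Over the 99 genes of the members and pathway lists, 62 could be tested. With 1 library on one side, calls in either direction are not read as a result about these lists. With TMM scaling, the median log2 fold change in replicate 3 was -0.18 for the 4 tested TIR adaptors other than Myd88. It was -0.11 for the 11 tested negative regulators and -0.09 for the 17 tested kinases and ubiquitin ligases. For the 4 tested co-receptors and relatives it was 0.03, and for the 11 tested folding and trafficking genes 0.055. The 6 tested transcription factors had a median of 0.07, and all genes one of 0.01. With the length trend removed, Map3k7 moved from -0.17 to -0.07 and Ikbkg from -0.19 to -0.04. Ikbkb and Ikbke, which encode IkappaB kinases, moved from -0.07 and 0.27 to 0.22 and 0.44. Traf3, a ligase of the TRIF route, had a log2 fold change of -0.37 (SE 0.049, edgeR adjusted p = 1.3e-12), and Traf6 of -0.32 (SE 0.044, edgeR adjusted p = 2.35e-12). Both stayed lower with the length trend removed, at -0.23 and -0.17. Ticam1 was at -0.24 in replicate 3, and at -0.32 with the length trend removed.

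The co-receptor gene Cd180 was lower in replicate 3 at -0.36 (SE 0.113, edgeR adjusted p = 0.0042) and at -0.34 with the length trend removed. Ly96 was at 0.12 (SE 0.067, edgeR adjusted p = 0.111) and turned to -0.15 with the trend removed, which did not pass either (adjusted p = 0.0601). Of the 5 tested target genes, Il10, Ccl3, Ccl4 and Ccl5 were at 0.33, 0.32, 0.57 and 0.38 on the log2 scale in replicate 3, and Cxcl10 at -0.12. With the length trend removed, Il10, Ccl3, Ccl4 and Ccl5 were at 0.08, 0.01, 0.24 and 0.09, and Cxcl10 at -0.27.

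**Figure D4:**
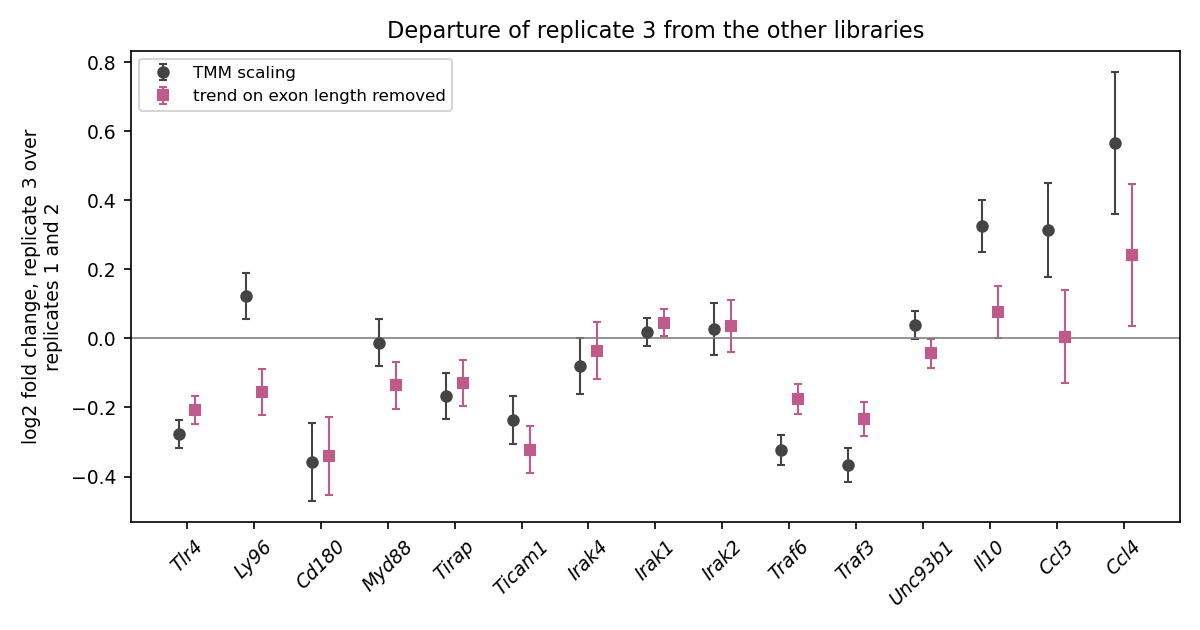
Log2 fold change of replicate 3 over replicates 1 and 2 for genes of the pathway, with bars for the SE from edgeR. Circles are values with TMM scaling and squares are values with the trend on exon length removed. Tlr4, Cd180, Myd88, Tirap, Ticam1, Irak4, Traf6 and Traf3 lie below 0 by both. The SE bars cross 0 for Irak4 by both and for Myd88 with TMM scaling. Il10, Ccl3 and Ccl4 move toward 0 when the trend is removed.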

How the data were processed

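Counts per gene were deposited by the authors as 1 table per sample without a header. Per the submitters' processing notes, bcl2fastq, cutadapt 4.2 and STAR were used, with mm10 as the genome. How genes were counted, with which annotation and strand setting, is stated in no source used here. The 10 members and the gene lists were chosen with earlier results of these data known. The cell type label of replicate 1 alone lacks the words on resistance to bortezomib. Its title and protocols match the others, so all 3 formed 1 group.

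Counts were divided by the library total to give CPM. GENCODE M21 (GRCm38, equal to mm10) gave exon lengths and positions and matched 23688 of 24467 symbols, all list genes included. Per kilobase values use the union of exons. Each library was set against the other 2 with edgeR 4.0.16 in R 4.3.3 (TMM, filterByExpr, 11308 genes, quasi-likelihood test, 1 residual degree of freedom, Benjamini-Hochberg adjustment at 0.05), tested on simulated data beforehand. The SE is the fold change divided by the square root of F, and it rests on the other 2 libraries. Gene pairs needed 10 counts in every library. Named were all members, list genes that every library held at 1 CPM or more or that were at 0, and the leading markers. Others, below 1 CPM in at least 1 library, were named after their values were seen. Alternatives were other detection limits, scalings, filters and lengths, DESeq2 1.42.0, a pseudocount of 0.5 counts, removal of the fold change's loess trend on exon length or GC content (span 0.3), and leaving out each replicate. Python 3.11.15, pandas 2.3.3 and SciPy 1.17.1 did the rest. The motif windows are the first 250 bases of each RefSeq promoter entry. The response element core was shortened from a longer form after the matches of that form had been seen, which raised its share of all windows and added the match before Tlr8.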

Additional observations from a re-analysis of the deposited data

How the results depend on the processing

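The number of members at 1 CPM or more was 2 at limits of 0.5 and 2 CPM, with TMM library sizes and without each replicate. The log2 ratio of Tlr4 to Ly96 was -0.12 with the longest transcript as the length and -0.055 without replicate 1, against 0.048 per kilobase, and over leaving out each replicate it ran from -0.055 to 0.18, and without lengths it was 2.49. That of Myd88 to Ticam1 was 0.07 without lengths, against 0.29 per kilobase. That of Tirap to Myd88 was 0.19 without lengths, against -0.75 per kilobase, and that of Irak4 to Myd88 was -1.09 without lengths, against -2.05. At a limit of 0.5 CPM, 1 of 3 other mouse receptors and 4 of 7 co-receptors and relatives passed, against 0 and 2 at 1 CPM, and at 2 CPM 2 of 17 target genes passed, against 5. Tlr4 was lower in replicate 3 under all 6 alternatives run, at -0.31 to -0.21 on the log2 scale. DESeq2 called 3023 of 9016 genes for replicate 3, and edgeR 3856 of 11308 with the length trend removed, against 5834, and DESeq2 called 1 gene each for replicates 1 and 2, against 9 and 6. Leaving out a library leaves 1 against 1 in the tests between libraries, with no residual degrees of freedom, so those tests were not repeated that way. No paired analysis was possible because there is 1 group. Depth limits the order of neighbouring receptors below 1 CPM.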
